A study of Homo sapiens with 2 samples.

Results

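The genes described here encode the proteins of the cytosolic ribosome and the initiation factors that load it onto mRNA. They were chosen by symbol, as protein-coding RefSeq genes named RPL or RPS with a digit (without the RPS6K and RPS19BP genes), RPLP0, RPLP1, RPLP2, RPSA, or with a name that starts with EIF. The rule found 146 such genes among 20033 protein-coding genes placed on the autosomes, X or Y. Of these, 90 are ribosomal protein genes (55 of the large and 35 of the small subunit, read-through and tissue-specific copies included) and 56 are EIF genes. Of the EIF genes, 8 encode kinases of eIF2 or proteins that bind eIF4E, and the other 48 were counted as initiation factors. The rule uses symbols only, and the group was proposed with earlier results of these data known.

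The data are peak lists from ATAC-seq, an assay that tags accessible DNA with a transposase, in C4-2, a castration-resistant human prostate cancer line derived from LNCaP. One library was made from cells carrying a control shRNA (labelled CTR), the other from cells carrying an shRNA against WHSC1 (NSD2), a histone H3 methyltransferase. Both came from the same line grown in RPMI with 10% FBS, and the labels name no shRNA sequence or clone. With 1 library per group there is no spread between replicates to judge a difference by. No p-value is therefore given, and each comparison below is between these 2 libraries. The control list held 2010 broad peaks and the knockdown list 2418, read depth is unknown, and the peaks are on GRCh38. Of 12 luminal prostate and androgen receptor genes, ACP3 and STEAP2 had a peak in each library. The others, KLK2 and KLK3 among them, had none. None of 5 leukocyte genes and none of 8 stromal, endothelial and basal genes had one. Few protein-coding genes of any kind did, 7.64% of them with the control shRNA and 9.26% with the WHSC1 shRNA. Lists this short therefore cannot show the identity or purity of the cells.

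In translation initiation, the small ribosomal subunit binds the initiator tRNA through eIF2, is held by the large eIF3 complex, and reaches the capped mRNA through the eIF4 factors. The large subunit then joins. Ribosomal protein genes are expressed in nearly all cells, and many of their mRNAs begin with a run of pyrimidines, the 5′ terminal oligopyrimidine (TOP) tract, through which mTOR signalling controls their translation. Kinases such as PERK, encoded by EIF2AK3, phosphorylate eIF2 under stress and lower initiation.

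The promoter sequences of the members with the strongest peaks are shown first. They are the 300-base windows of RefSeq (GRCh38.p14), from 250 bases before to 50 after the start site, for the members with the highest control fold enrichment among genes with a peak in both libraries, followed by the 2 highest with a peak in the knockdown only. Capitals mark letter matches to 7 motifs searched. The letters for the TATA box were TATAAA and those for the CCAAT box were its name. ETS factors were searched with the letters CCGGAAG, YY1 with the letters AAGATGGC and NRF1 with the letters GCATGCGC. The GC box was spelled CCCGCCC, and all of these were searched on both strands. The letters for a TOP start, CTCTTTCC, were searched on the strand of the gene. No motif of the set contains another. A match is a description of the letters, not a bound site.
EIF2AK3: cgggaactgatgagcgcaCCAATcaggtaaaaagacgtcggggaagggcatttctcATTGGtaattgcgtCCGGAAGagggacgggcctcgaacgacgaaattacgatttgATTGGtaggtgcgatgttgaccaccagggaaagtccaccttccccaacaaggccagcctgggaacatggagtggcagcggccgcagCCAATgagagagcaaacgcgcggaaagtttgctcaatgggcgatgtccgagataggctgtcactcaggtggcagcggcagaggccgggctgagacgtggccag
EIF2A: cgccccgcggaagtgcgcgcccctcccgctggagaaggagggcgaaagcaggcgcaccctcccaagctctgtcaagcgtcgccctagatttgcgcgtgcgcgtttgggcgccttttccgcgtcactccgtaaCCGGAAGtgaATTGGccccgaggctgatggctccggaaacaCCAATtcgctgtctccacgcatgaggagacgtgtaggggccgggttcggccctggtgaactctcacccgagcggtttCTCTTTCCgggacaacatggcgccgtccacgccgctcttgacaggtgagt
RPS29: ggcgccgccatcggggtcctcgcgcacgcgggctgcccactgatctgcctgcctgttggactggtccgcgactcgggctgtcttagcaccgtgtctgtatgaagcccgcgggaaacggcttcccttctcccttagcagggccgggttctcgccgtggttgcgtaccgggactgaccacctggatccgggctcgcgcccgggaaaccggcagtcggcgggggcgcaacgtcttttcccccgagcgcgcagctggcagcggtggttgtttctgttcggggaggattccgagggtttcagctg
RPS23: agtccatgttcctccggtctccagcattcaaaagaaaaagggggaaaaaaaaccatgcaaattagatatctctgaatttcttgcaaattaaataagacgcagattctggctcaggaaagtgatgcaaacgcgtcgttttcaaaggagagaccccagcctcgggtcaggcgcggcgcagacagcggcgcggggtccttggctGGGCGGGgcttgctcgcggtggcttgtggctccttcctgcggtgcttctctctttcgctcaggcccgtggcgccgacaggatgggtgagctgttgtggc
EIF2S1: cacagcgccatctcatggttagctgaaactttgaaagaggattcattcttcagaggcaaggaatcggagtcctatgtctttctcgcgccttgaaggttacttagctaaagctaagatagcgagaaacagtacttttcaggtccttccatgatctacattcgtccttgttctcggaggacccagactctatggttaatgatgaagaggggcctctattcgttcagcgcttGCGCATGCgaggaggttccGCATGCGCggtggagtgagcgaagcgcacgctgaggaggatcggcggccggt
RPL36AL: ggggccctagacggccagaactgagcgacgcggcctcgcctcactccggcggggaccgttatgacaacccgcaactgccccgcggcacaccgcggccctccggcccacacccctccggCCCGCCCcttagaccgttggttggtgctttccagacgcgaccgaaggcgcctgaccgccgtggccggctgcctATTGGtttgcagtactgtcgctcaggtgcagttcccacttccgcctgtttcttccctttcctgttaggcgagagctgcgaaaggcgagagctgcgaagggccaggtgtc

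The window of EIF2AK3 is at chr2:88627415-88627714 (minus strand) and that of EIF2A at chr3:150546537-150546836 (plus strand). RPS29 is at chr14:49598661-49598960 (minus), RPS23 at chr5:82278305-82278604 (minus), EIF2S1 at chr14:67360078-67360377 (plus) and RPL36AL at chr14:49620577-49620876 (minus). Peaks of both libraries covered the whole window of EIF2A. At EIF2AK3 the control peak covered 135 bases of the window and the knockdown peak 248, at RPS23 they covered 181 and 233, and at RPS29 160 and 100. The knockdown peaks covered 263 bases at EIF2S1 and 230 at RPL36AL. EIF2AK3 held 4 CCAAT matches (from -232 to -53 bases of the start site) and an ETS match at -180, EIF2A held 2 CCAAT matches and an ETS match at -118, and EIF2S1 held 2 NRF1 matches, at -21 and -2. RPS23 and RPL36AL each held 1 GC box, and RPS29 held none of the 7 motifs. RPS29 is in this set for the fold enrichment of a second peak, deep inside the gene. Its window belongs to the only RPS29 start site in the RefSeq table, and further starts were not examined. The control-only gene RPL41 is not shown because its peak lay outside its start window, and EIF3A is named only.

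How many of these genes had a peak was asked first. A gene was counted when a peak lay in it or within 3 kb of an end. Few did: 11 of 146 members in the control (7.53%, 95% exact interval 3.82 to 13.1%) and 18 after WHSC1 knockdown (12.3%, interval 7.47 to 18.8%). Over all protein-coding genes the shares were 7.64% in the control and 9.26% in the knockdown. Both lie within the members' intervals, which cover the counting of genes only, so the members' shares cannot be told from those of all genes. A peak was found in both libraries at 8 members, in the control only at 3 and in the knockdown only at 10. Over all protein-coding genes these 3 states held 4.95%, 2.69% and 4.32%, against 5.48% (interval 2.40 to 10.5%), 2.05% (interval 0.426 to 5.89%) and 6.85% (interval 3.33 to 12.2%) of the members. The remaining 125 members had no peak in either list. A missing peak is a missing call at the authors' threshold and not a measured absence of accessibility.

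Ribosomal protein genes and EIF genes were then compared. In the control these were 6 of 90 ribosomal genes (6.67%, interval 2.49 to 13.9%) and 5 of 56 EIF genes (8.93%, interval 2.96 to 19.6%). In the knockdown they were 10 (11.1%, interval 5.46 to 19.5%) and 8 (14.3%, interval 6.38 to 26.2%). The intervals overlap widely in each library. Of 55 large subunit genes, 3 had a control peak and 5 a knockdown peak, and of 35 small subunit genes likewise 3 and 5. The counts were 3 and 7 for the 48 initiation factors, and 2 and 1 for the 8 genes of eIF2 kinases and eIF4E binders. The knockdown list is also the longer of the 2. With that list shortened to the 2010 peaks of highest −log10 q, 9 ribosomal and 7 EIF genes had a peak, beside 8.07% of all protein-coding genes.

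**Figure D1:**
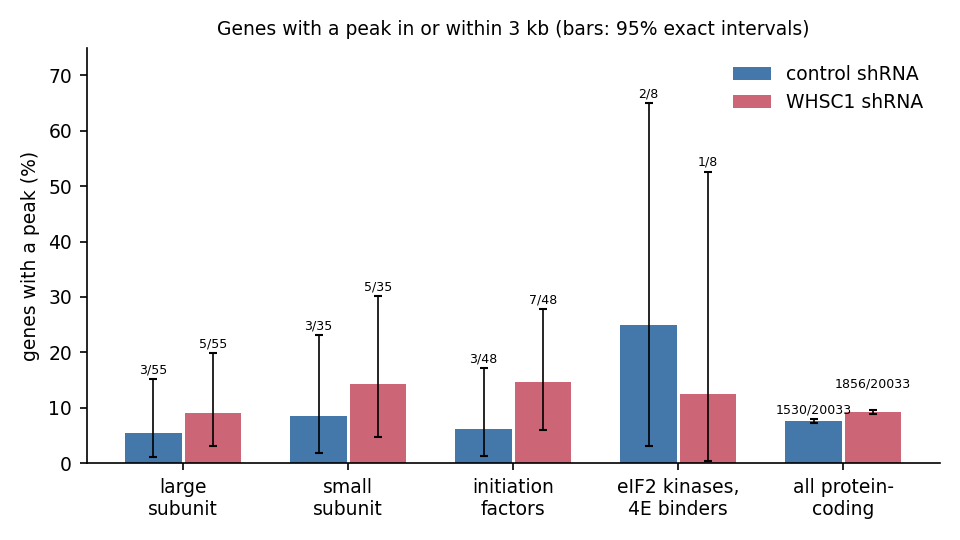
Share of genes (%) with a peak in or within 3 kb, for each class of members and for all protein-coding genes, in the control and the WHSC1 knockdown library; error bars are 95% exact intervals and the numbers are genes with a peak over genes in the class. The shares of all protein-coding genes, 7.64% and 9.26%, lie within the interval of every class.

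The values below are the authors' fold enrichment of a peak over the local background of its own library, and −log10 q is the strength of the authors' call. The 2 lists are not scaled to each other. Member peaks had fold enrichments close to those at other genes. Their median fold enrichment was 3.51 in the control (12 peaks, range 2.96 to 4.29) and 3.52 in the knockdown (19 peaks, range 2.97 to 4.58). The medians of all peaks at protein-coding genes were 3.59 and 3.46. Peaks of ribosomal and EIF genes had nearly equal medians, 3.50 and 3.51 in the control and 3.52 and 3.49 in the knockdown. A −log10 q of 5 was reached by no member peak in the control and by 3 in the knockdown, at EIF2A, EIF2S1 and inside RPS29. Of all peaks at protein-coding genes, 92 of 1351 in the control and 117 of 1637 in the knockdown reached it.

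**Figure D2:**
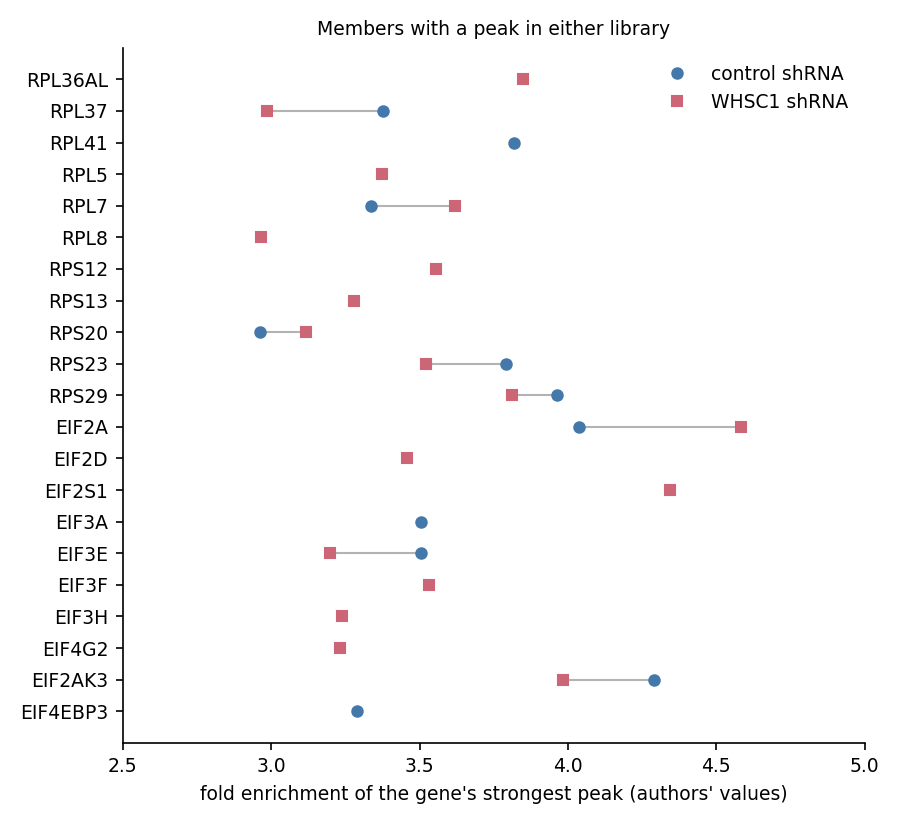
Fold enrichment of the strongest peak of each of the 21 members with a peak (authors' values, no scaling between libraries); circles are the control, squares the WHSC1 knockdown, and a line joins the 2 values of a gene with a peak in both. Of the 8 joined genes, the control value is the higher at 5 and the knockdown value at 3; at RPL37 and RPS29 the joined values belong to different peaks.

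Among small subunit genes, RPS23 carried the same peak in both libraries. Its fold enrichment was 3.79 with the control shRNA (−log10 q 3.15) and 3.52 with the WHSC1 shRNA (−log10 q 3.16). RPS23 encodes a protein of the decoding centre of the ribosome. Its peak lay just upstream of the start site, from -342 to -70 bases in the control and from -320 to -18 in the knockdown, with no other protein-coding gene within 3 kb. RPS20 had the weakest control peak of the set, at 2.96-fold (−log10 q 1.53), and a knockdown peak of 3.12-fold (−log10 q 1.87). That peak lay at the end of the gene at base 56074506 of chromosome 8, beside the snoRNA gene SNORD54 and the noncoding gene CERNA3.

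RPS29 had 2 peaks in each library, at different places. One lay upstream of the only RPS29 start site in the RefSeq table, 91 bp (control) and 151 bp (knockdown) beyond the gene. It covered an end of LRR1, the gene of a ubiquitin ligase substrate receptor. The fold enrichment of this peak was 3.50 for the control library and 3.81 for the knockdown. The other lay more than 11 kb inside the RefSeq gene, over RN7SL1, which encodes the 7SL RNA of the signal recognition particle. Its control value was 3.96-fold (−log10 q 4.599) and its knockdown value 3.69-fold (−log10 q 5.04). 7SL RNA has many genomic copies, so reads there are uncertain. The strongest control peak counted for RPS29 is not at the start site in the table. RefSeq bounds give RPS29 a length of 27723 bp, against a median of 5136 bp for ribosomal genes. Whether a further RPS29 start lies at the RN7SL1 peak was not examined, so neither peak can be named its promoter peak. RPS12 and RPS13 had a peak in the knockdown only, with 3.56-fold (−log10 q 3.25) and 3.28-fold enrichment (−log10 q 2.33). Both peaks touched the first bases of the gene or ended within 5 bases of it, and both genes carry snoRNA genes within their bounds (SNORD101, SNORD100 and SNORA33 for RPS12, SNORD14A and SNORD14B for RPS13).

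Among large subunit genes, only RPL7 had the same peak in both libraries. The control value was 3.34-fold (−log10 q 2.59) and the knockdown value 3.62-fold (−log10 q 4.49), at the end of the gene on chromosome 8 that faces RDH10, a retinol dehydrogenase gene. The control peak was 1313 bp wide (73293598 to 73294910) and the knockdown peak 655 bp (73293607 to 73294261). The first covered the end of RPL7 and the second lay 205 bp inside it, and both were within 3 kb of RDH10. RPL37 counted as having a peak in both libraries, but at opposite ends of the gene. The control peak was at 40835178 to 40835407 on chromosome 5, over the upper end (3.38-fold). The knockdown peak was at 40824611 to 40824870, 392 bp beyond the lower end (2.99-fold, −log10 q 1.222). The same region was therefore called in both libraries at 7 members, not 8. Of the 8, the control fold enrichment was the higher at 5, and over all protein-coding genes with a peak in both it was at 569 of 991. At RPS29 that order compares the RN7SL1 peak of the control with the upstream peak of the knockdown, and it turns at the upstream peak alone.

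RPL36AL, a near copy of RPL36A, can share reads with it inside the gene. It had the strongest knockdown-only ribosomal peak, 3.85-fold (−log10 q 3.81), from -223 to 6 bases of the start and so mostly outside the gene. This peak sat between RPL36AL and MGAT2, a Golgi glycosylation enzyme gene, and touched both. RPL5, whose protein carries 5S rRNA and binds MDM2, had a 3.37-fold knockdown peak over its end (−log10 q 2.17), 462 bp from DIPK1A. The RPL8 peak (2.97-fold, −log10 q 1.44) lay 2401 bp beyond the nearer end of RPL8 and over ZNF34, so it is a neighbour's peak by position. RPL41, which encodes a very short basic ribosomal protein, had a control-only peak of 3.82-fold (−log10 q 2.48). This peak lay from 1366 to 1912 bp past the RPL41 start, beyond the far end of the gene and over an end of ZC3H10.

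Among initiation factors, EIF2A had the highest fold enrichment of the set in the knockdown. It encodes a factor that can deliver initiator tRNA without eIF2. Its control peak was 4.04-fold (−log10 q 3.82) and 335 bp wide, and its knockdown peak 4.58-fold (−log10 q 6.71) and 650 bp wide. The knockdown peak ranked 129 of 2418 by fold enrichment and the control peak 418 of 2010. Both peaks also lay within 3 kb of SERP1, a gene for an endoplasmic reticulum protein, whose end was 35 bp from the control peak and under the knockdown peak. EIF2D, which encodes a related initiation and recycling factor, had a knockdown-only peak over its start (3.46-fold, −log10 q 2.25).

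EIF2S1 encodes the alpha subunit of eIF2, the target of the stress kinases. It was the only one of 4 genes for eIF2 subunits with a peak, in the knockdown only, with 4.34-fold enrichment (−log10 q 5.201). That peak covered the start site from -444 to 12 bases and lay 80 bp from an end of ATP6V1D and within the bounds of GPHN. The 5 genes of eIF2B, the exchange factor of eIF2, had no peak in either library. Over all protein-coding genes 7.64% had one in the control and 9.26% in the knockdown, so counts in such small families do not set them apart.

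Of 14 genes for eIF3 subunits, a peak was found at 2 in the control library and at 3 in the knockdown library. Over all protein-coding genes 7.64% and 9.26% had one. EIF3E had the same peak in both, 3.51-fold with the control shRNA (−log10 q 2.74) and 3.20-fold with the WHSC1 shRNA (−log10 q 2.14), and no other protein-coding gene was near. EIF3A, the scaffold of the complex, had a control-only peak 14 bp from its end (3.51-fold, −log10 q 1.52). EIF3F had a knockdown-only peak over its start (3.53-fold, −log10 q 2.59). EIF3H had one 55 bp from its end (3.24-fold, −log10 q 2.27), which lay over UTP23, a ribosome biogenesis gene.

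Of 12 genes for eIF4 factors only EIF4G2 had a peak. It encodes a relative of the eIF4G scaffold that lacks the site for eIF4E, and its knockdown-only peak had 3.23-fold enrichment (−log10 q 1.41). EIF4G2 has 2 start sites in the RefSeq table, and the peak covered the outer one. EIF4A1, EIF4B, EIF4E and EIF4G1 had no peak, nor did the 5 genes of the eIF1 family or the 6 genes of eIF5, eIF5A, eIF5B and eIF6. With shares of 7.64% (control) and 9.26% (knockdown) over all protein-coding genes, these counts do not set the families apart.

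Of the genes that restrain initiation, EIF2AK3 (PERK, the endoplasmic reticulum kinase of eIF2) had the highest control fold enrichment of the set. That value was 4.29 (−log10 q 3.13), against 3.98 in the knockdown library (−log10 q 3.61), and the peak shared its place with the divergent noncoding gene EIF2AK3-DT. The other 3 eIF2 kinase genes had no peak, beside 7.64% (control) and 9.26% (knockdown) of all protein-coding genes with one. EIF4EBP3, one of 4 genes for eIF4E binders, had a control-only peak over its start (3.29-fold, −log10 q 1.67, 859 bp wide), which also lay in the read-through gene ANKHD1-EIF4EBP3 and within 3 kb of SRA1.

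Which member peaks had a partner in the other list was then compared with their strength. Of the 12 control peaks 8 had a partner (66.7%), and of the 19 knockdown peaks also 8 (42.1%). Over all peaks at protein-coding genes the shares were 58.0% and 47.8%. At a −log10 q of 3 or more, all 4 control member peaks had a partner, against 85.2% of 357 such peaks at protein-coding genes. In the knockdown 6 of 9 had one, against 76.4% of 470. The 3 without a partner at that strength were at EIF2S1, RPL36AL and RPS12. At a −log10 q below 2, a partner was found for 2 of 5 control and 1 of 4 knockdown member peaks, against 36.8% and 25.9% of all such peaks. No control peak lay within 1 kb of the knockdown peaks without a partner.

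Peaks of these genes lay close to gene ends. In the control 11 of 12 pairs of a member and its peak were within 500 bp of an end of that gene (91.7%, interval 61.5 to 99.8%), and in the knockdown 17 of 19 (89.5%, interval 66.9 to 98.7%). Over all protein-coding genes 68.8% of 1638 pairs in the control and 67.5% of 1985 in the knockdown were as close. The control share of all genes lies inside the members' interval, and so does the knockdown share. The exceptions were the RN7SL1 peak inside RPS29 in both libraries and the RPL8 peak.

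The start site itself could be placed for 119 of the 146 members, which have 152 start windows in the RefSeq table. Of the 21 members with a peak, 13 were among them. Peaks overlapped a start window of 5 of the 119 in the control and 11 in the knockdown, where 5.81% and 7.07% of all protein-coding genes in the table had such a peak. Of the pairs of a gene and its peak, 5 of 7 and 11 of 12 were over a start window, against 71.3% and 69.0% over all protein-coding genes, inside the members' intervals (29.0 to 96.3% and 61.5 to 99.8%). Except at EIF2D, EIF4EBP3 and RPL41 and inside RPS29, most of each peak lay upstream of the start. At RPL41, RPS12, RPS23, RPS29 and EIF2AK3 no peak covered the start site in the table. The bounds of EIF2AK3 reach beyond that start. Its control peak lay inside the gene, 8 bp from the end, and its knockdown peak covered this end. At EIF2D the peak ran from -60 to 179 bases, and at EIF4EBP3 it reached 646 bases downstream. The other 8 members with a peak (EIF3A, EIF3E, EIF3H, RPL37, RPL5, RPL7, RPL8 and RPS20) were placed by gene ends only.

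**Figure D3:**
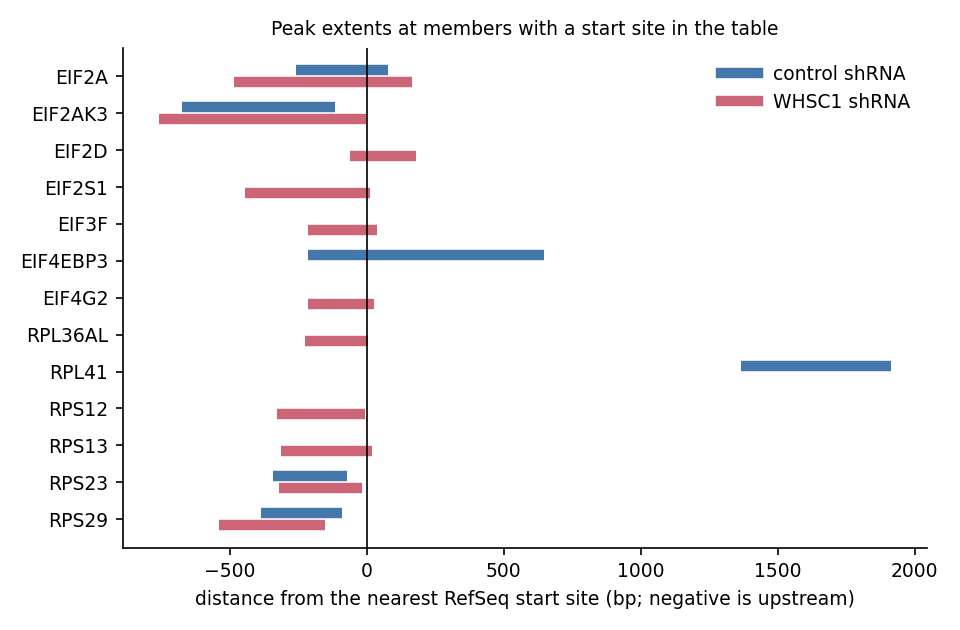
Extent of each peak relative to the nearest RefSeq start site (bp, negative is upstream), for the 13 members with a start site in the table, in the control and the WHSC1 knockdown; the RN7SL1 peaks inside RPS29 lie beyond the axis and are left out. The peaks sit over or just upstream of the start except at RPL41, where the peak begins 1366 bp downstream.

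Neighbours shared many of these peaks. Another protein-coding gene was in reach of 5 of 12 member peaks in the control (41.7%, interval 15.2 to 72.3%) and 8 of 19 in the knockdown (42.1%, interval 20.3 to 66.5%). Over all protein-coding genes 33.9% of gene and peak pairs were shared in this way in each library, inside the members' intervals. The shared peaks in the control were those of EIF2A, EIF4EBP3, RPL41, RPL7 and the upstream peak of RPS29. In the knockdown they were those of EIF2A, EIF2S1, EIF3H, RPL36AL, RPL5, RPL7, RPL8 and RPS29. With only peaks that no other protein-coding gene shares, 4 ribosomal and 3 EIF genes kept a peak in the control and 6 and 5 in the knockdown, and over all protein-coding genes 5.06% and 6.12% did. RPS29 kept its place in that count through the RN7SL1 peak alone.

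The members with a peak were unevenly spread over the chromosomes. On chromosome 8, 5 of 7 members had a peak in either library (EIF3E, EIF3H, RPL7, RPL8 and RPS20; 71.4%, interval 29.0 to 96.3%), against 24.9% of all 714 protein-coding genes there. On chromosome 3, which holds 16 members and where 24.6% of all genes had a peak, only EIF2A had one. Chromosomes 5 and 14 had 3 of 6 members each (50%, interval 11.8 to 88.2%), where 24.4% and 15.2% of all genes had a peak. Chromosome 11 had 3 of 9 (interval 7.49 to 70.1%), where 12.1% did. The shares of all genes lie within these intervals, and on chromosome 8 the share lies below the interval. That count includes RPL8, whose peak lay over ZNF34 and not at RPL8, and EIF3H and RPL7, whose peaks were shared with UTP23 and RDH10. These chromosomes were picked after their values were seen. Chromosomes 17, 19 and 22 hold 19 of 90 ribosomal genes (21.1%) and 9 of 56 EIF genes (16.1%), against 15.3% of all protein-coding genes, and no member there had a peak. On those 3 chromosomes only 33 of 3071 protein-coding genes of any kind had one. Elsewhere, a control peak was found at 6 of 71 ribosomal genes (8.45%) and a knockdown peak at 10 (14.1%), and likewise at 5 (10.6%) and 8 (17.02%) of 47 EIF genes, beside 8.96% and 10.8% of all genes.

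**Figure D4:**
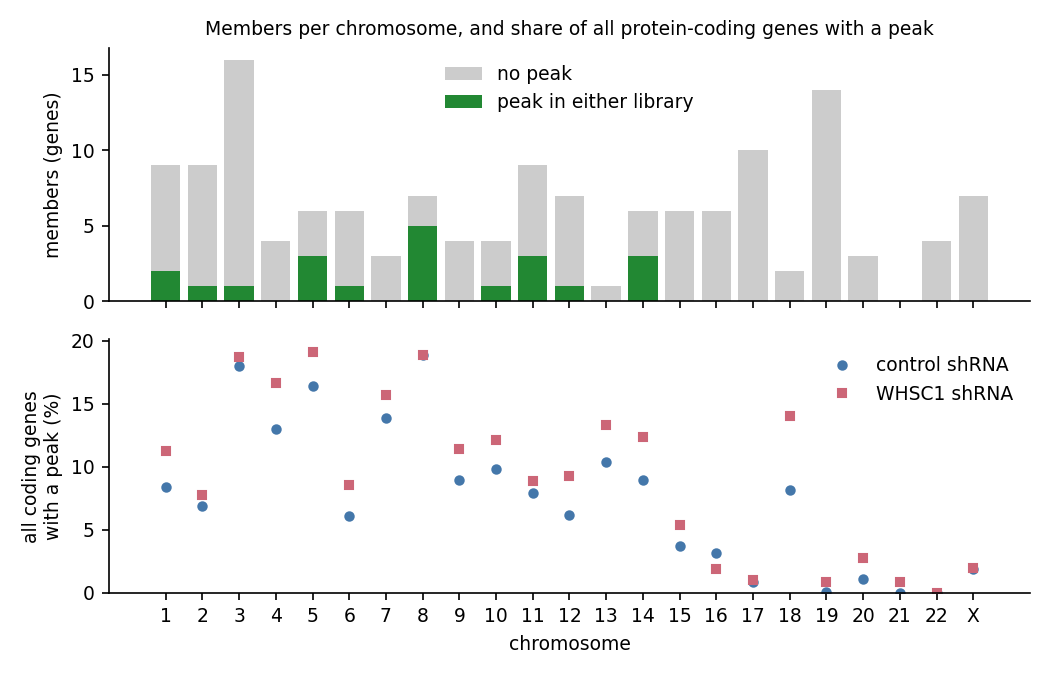
Upper panel, members per chromosome, with those that had a peak in either library in green; lower panel, share (%) of all protein-coding genes with a peak in the control (circles) and the WHSC1 knockdown (squares); chromosome Y is not drawn. The 14 members on chromosome 19 and the 10 on chromosome 17 had no peak, and 5 of 7 on chromosome 8 did, RPL8 through a peak over ZNF34.

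Members with a peak also lay in sparser surroundings. Ribosomal genes with a peak had a median of 8 protein-coding genes within 500 kb, and those without had 16. For EIF genes the medians were 7.5 and 15.5, and for all protein-coding genes 6 and 13. The members with a peak ranged from 1 neighbour at RPS23 to 44 at RPL41. Gene length differed in the 2 classes: ribosomal genes had a median length of 5136 bp and EIF genes 22588 bp. EIF genes with a peak had a median of 41275 bp and those without 20486.5 bp. Over all protein-coding genes the medians were 50659 and 21622.5 bp, and for ribosomal genes 4225 and 5207 bp. Every EIF peak lay within 500 bp of an end of its gene. The part of gene length in the calls was not tested.

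The sequence at the start site differed between the 2 classes. The stretches below run from 20 bases before the start site to 19 after it, so the start is the 21st base, for the members with a peak that are in the table. Capitals mark the longest run of C and T that touches the 5 bases on either side of the start. They show runs of 8 or more at most of the ribosomal genes, and at EIF2A, EIF2D and EIF3F among the initiation factors. A run can begin before the start site, so its length is not that of a TOP tract.
RPL36AL: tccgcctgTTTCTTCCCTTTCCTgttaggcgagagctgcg
RPL41: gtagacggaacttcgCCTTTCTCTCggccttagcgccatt
RPS12: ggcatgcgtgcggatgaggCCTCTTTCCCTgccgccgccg
RPS13: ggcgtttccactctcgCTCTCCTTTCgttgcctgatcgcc
RPS23: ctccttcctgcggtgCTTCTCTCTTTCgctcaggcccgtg
RPS29: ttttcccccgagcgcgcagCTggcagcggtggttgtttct
EIF2A: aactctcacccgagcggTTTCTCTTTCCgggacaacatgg
EIF2D: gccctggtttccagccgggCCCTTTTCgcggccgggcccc
EIF2S1: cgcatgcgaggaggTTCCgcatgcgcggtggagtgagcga
EIF3F: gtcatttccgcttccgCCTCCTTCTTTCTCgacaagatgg
EIF4G2: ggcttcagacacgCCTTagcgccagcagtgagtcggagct
EIF2AK3: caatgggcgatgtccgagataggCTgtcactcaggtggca
EIF4EBP3: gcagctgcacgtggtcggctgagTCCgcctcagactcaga

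Ribosomal start windows had a median pyrimidine run of 10 bases (89 windows), against 4 in EIF windows (63) and 4 in all windows of protein-coding genes (22198). A run of 8 or more was found in 67.4% of ribosomal, 19.05% of EIF and 11.8% of all windows. Among ribosomal genes the median run was 10.5 bases in those with a peak (6 windows) and 10 in those without (83 windows). RPL36AL had the longest run shown, 15 bases, but it began at -12 bases of the start, so most of it lay upstream. The RPS29 window, with a run of 2 bases, was the exception among the ribosomal windows of genes with a peak. That value describes the only RPS29 start in the table, and further RPS29 starts were not examined. EIF3F had 14 bases, EIF2A 11 and EIF2D 8. The exact letters CTCTTTCC were in 15.7% of ribosomal, 4.76% of EIF, 1.56% of protein-coding and 1.57% of all 35116 windows of the table.

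**Figure D5:**
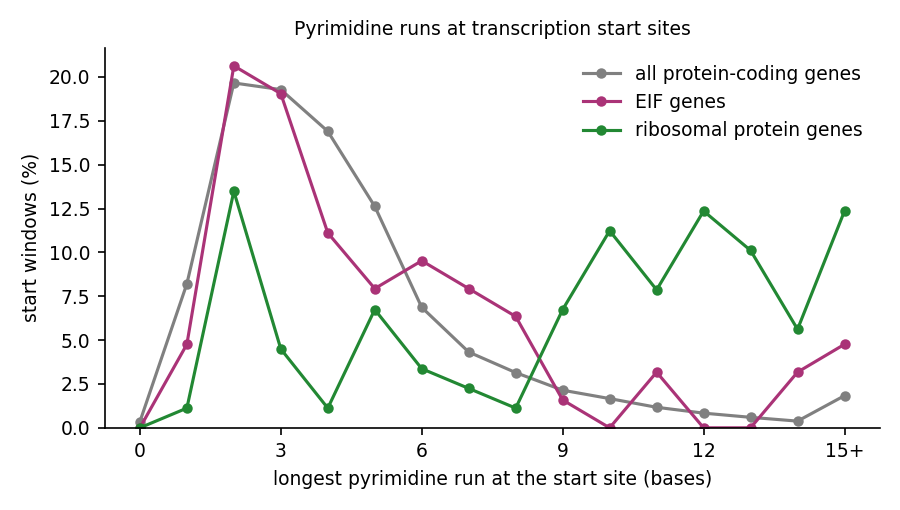
Share of start windows (%) by the length of the longest pyrimidine run at the start site (bases; 15+ pools longer runs), for ribosomal protein genes, EIF genes and all protein-coding genes. A run of 8 or more is found in 67.4% of ribosomal windows, 19.05% of EIF windows and 11.8% of all windows.

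Of the other motifs, the ETS letters CCGGAAG were in 31.5% of ribosomal and 23.8% of EIF windows, against 12.8% of windows of protein-coding genes and 10.3% of all windows. None of the 6 ribosomal windows of genes with a peak held it, against 28 of 83 of ribosomal genes without one, and 2 of 8 EIF windows with a peak did. CCAAT was in 33.7% of ribosomal and 36.5% of EIF windows, against 34.7% of windows of protein-coding genes and 34.6% of all. Of the 14 windows of members with a peak 7 held it. AAGATGGC was in 7.87% of ribosomal and 6.35% of EIF windows, against 3.53% of windows of protein-coding genes and 2.89% of all. CCCGCCC was in 29.2% and 50.8%, against 42.3% and 33.1%. TATAAA was in 8.99% and 3.17%, against 9.47% and 11.5%, and GCATGCGC in 3.37% and 3.17%, against 3.74% and 3.05%. With 6 to 14 windows of genes with a peak, these shares describe the windows only.

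Base composition moved with the calls over all genes. Start windows of protein-coding genes were under a peak in 0.807% (control) and 1.21% (knockdown) of cases among the windows of lowest GC content, of 5 equal groups. In the middle group (59.7 to 65.3% GC) these were 7.74% and 9.27%, and in the highest (72.3% GC and above) 3.43% and 4.49%. Members with a peak had a median GC content of 63.2% in their start windows and members without 61.2%. The part of GC content in the members' calls was not tested.

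Processed copies of ribosomal genes are frequent in the genome, and reads can be shared with them. RPL7 has 61 pseudogenes named after it in the RefSeq table, RPL5 and RPS20 have 35 each, RPS29 has 33 and RPS12 has 31, so reads inside these genes are uncertain. Not all of their peaks lay inside. The RPS12 peak ended 5 bp before the gene and the knockdown peak of RPS20 lay 7 bp outside it, while the knockdown peak of RPL7 lay inside. Ribosomal genes with a peak had a median of 25 such copies and those without a median of 13. Of 2079 pseudogenes named after ribosomal or EIF genes, 13 had a peak in or within 3 kb of them in the control (0.625%). In the knockdown 11 did (0.529%). Most of those peaks lay at another protein-coding gene, and 3 of 12 peaks in the control and 4 of 10 in the knockdown did not. The share among other pseudogenes was not counted, and the sharing of reads with the copies was not tested. Of 11 ribosomal genes with a peak, 5 held a snoRNA gene within their bounds, and of 79 without a peak 25 did.

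Other genes of protein synthesis were counted in the same way. Of 21 elongation, termination and recycling genes, 2 had a control peak (9.52%) and 3 a knockdown peak (14.3%). Over all protein-coding genes 7.64% and 9.26% had a peak, and no test of this list was made. GFM1, a mitochondrial elongation factor, had one in both (3.74-fold and 3.77-fold). EEF1B2, an exchange factor of eEF1A, had one in the control only (4.04-fold). ABCE1, which recycles ribosomes, and ETF1, the release factor, had one in the knockdown only (4.56-fold and 4.15-fold). The genes for the most abundant elongation factors, EEF1A1 and EEF2, had none.

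Of 13 genes of poly(A)-binding and cap factors, 3 had a control peak (23.1%) and 2 a knockdown peak (15.4%). The shares over all protein-coding genes were 7.64% and 9.26%, and this list was not tested either. LARP1, which binds TOP mRNAs, had values of 3.22-fold (control) and 3.81-fold (knockdown), PAIP1 3.46-fold and 3.14-fold, and NCBP1 3.27-fold in the control only. Of 91 ribosome biogenesis genes, 11 had a control peak (12.1%) and 17 a knockdown peak (18.7%), beside 7.64% and 9.26% of all protein-coding genes, and no test of this list was made. The highest there was DDX18, an RNA helicase gene (4.29-fold and 4.99-fold, control first). GAR1 (4.14-fold) and DIMT1 (3.97-fold) followed in the control, and RIOK2 (4.18-fold) and DIMT1 (3.93-fold) in the knockdown. GAR1, DIMT1, RIOK2, NMD3, RRS1, TAF1D and WDR75 also had a peak in both libraries. HEATR1, UTP18 and WDR36 had one in the control only. BRIX1, EFL1, IMP4, POLR1D, RRP15, SBDS, UTP23, UTP3 and WDR3 had one in the knockdown only.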

How the data were processed

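ATAC-seq of 2 C4-2 libraries, control shRNA and WHSC1 shRNA, was analysed, grouped by the condition label. The authors deposited 1 list of broad peaks per library, so peaks were called per library. Per the submitters' processing notes, Bowtie2 2.2.9, MACS2, CASAVA 1.8.2, Picard 1.101, SAMtools 1.9 and ChIPseeker 1.22.1 were used with GRCh38. Their order and options, the cut-site shift and the treatment of duplicates, not given in the sources used here, can change the number and width of peaks. The deposited values of a peak are its fold enrichment (the ratio of its pileup to the local background of that library), a −log10 p-value, a −log10 q-value, and a score that is the −log10 q-value times 10. Read depth is unknown.

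Gene bounds, start sites and promoter windows came from RefSeq tables (GRCh38.p14), and coordinates are 1-based. A peak counted for a gene when in it or within 3 kb of an end. Peaks overlapping by at least 1 bp were called shared. Shares carry 95% exact Clopper-Pearson intervals for counting only, and genes with a common peak are not independent of each other. With 1 library per group no test was made. Every member with a peak is named, and promoters were shown for the 4 members of highest control fold enrichment with a peak in both libraries and the 2 highest per library with a peak in 1, where the table held a window and the peak reached it. Members and lists were chosen with earlier results of these data known. The pyrimidine run, the GC groups, the pseudogene and snoRNA counts and the comparison by −log10 q were chosen after values were seen. The gene and peak joins were tested on simulated data. The software was scipy 1.17.1, numpy 2.4.6, pandas 2.3.3 and matplotlib 3.10.9 under Python 3.11.15.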

Additional observations from a re-analysis of the deposited data

How the results depend on the processing

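No paired analysis was possible because each group has 1 library. Of 65 values recomputed under alternative settings, 46 stayed within 1.5 times the reported value. A distance of 1 kb, gene ends only, equal numbers of peaks, genes off chromosomes 17, 19 and 22, and both other definitions of a shared peak moved no count beyond that. With a −log10 q of at least 2, EIF genes with a control peak fell from 5 to 3 and control-only members from 3 to 1. With at least 5, ribosomal and EIF genes with a control peak both fell to 0, and those with a knockdown peak to 1 and 2. Members with a peak in both fell to 0, control-only members to 0 and knockdown-only members to 3. The share of all protein-coding genes fell to 0.579% (control) and 0.739% (knockdown). Their shares with a peak in both, the control only and the knockdown only fell to 0.295%, 0.285% and 0.444%. With no other protein-coding gene at the peak, there were 6 ribosomal and 5 EIF genes with a knockdown peak, 3 EIF genes with a control peak, 1 control-only member and 5 knockdown-only members. The all-gene shares there were 6.12% (knockdown), 5.06% (control), 1.87% (control only) and 2.93% (knockdown only). With start windows only (an alternative added after seeing the data, 119 members), 2 ribosomal and 3 EIF genes had a control peak and 5 ribosomal genes a knockdown peak, with 4 members in both and 1 in the control only. The all-gene shares with these windows were 5.81% (control), 7.07% (knockdown), 3.88% (both) and 1.93% (control only). These settings use fewer peaks or genes. Of the 8 members with a peak in both, 5 had the higher fold enrichment in the control, and 4 with the peak nearest to a gene end.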
